A study of Mus musculus with 6 samples.

Results

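Pericytes are the contractile support cells that wrap capillaries, and 7 genes by which they are commonly recognised, Pdgfrb, Cspg4, Rgs5, Notch3, Higd1b, Kcnj8 and Abcc9, are described here. They were chosen by symbol, each matched 1 row of the 18174 in the deposited table, and all 7 were among the 15238 genes with enough reads to test. The lungs came from male wild-type C57BL/6J mice, with 3 libraries from mice held at 4 °C for 6 h and 3 from mice kept at room temperature. The labels call the 3 libraries of a group biological replicates and do not say whether each came from its own animal, so the p-values measure the spread between these libraries. The sample titles say lung tissue and do not name the part of the lung taken. In such tissue the part taken, the number of cells of a type and the RNA per cell cannot be told apart.

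In the capillary wall, endothelial cells release PDGF-B, which acts on the receptor PDGFRβ on pericytes and keeps them in place. Notch3 on mural cells, the common name for pericytes and vascular smooth muscle cells, is switched on by Notch ligands of the neighbouring endothelium. Pericytes and smooth muscle also carry a potassium channel closed by ATP, built from the pore subunit Kir6.1 (Kcnj8) and the sulfonylurea receptor SUR2 (Abcc9), which sets membrane potential and through it vessel tone. None of the 7 genes is restricted to pericytes. Among other overlaps, smooth muscle cells share Notch3, Cspg4, Rgs5 and both channel genes, fibroblasts share Pdgfrb, and heart muscle shares Abcc9. These examples are not a full list.

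The promoters of Pdgfrb and Higd1b were not examined, and whether each has an entry is not stated here. The promoters of 5 of the 7 genes, those of Cspg4, Rgs5, Notch3, Kcnj8 and Abcc9, were taken from RefSeq promoters on GRCm38.p6. Those of 4 are shown because they stand on each side of the comparison: Rgs5 and Notch3 were higher in cold, and the neighbouring channel genes Kcnj8 and Abcc9 were not called. Each runs 5′ to 3′ on the strand of its gene, from 250 bases before the transcription start to 50 after it. Capitals mark the GC box (GGGCGG or its complement CCGCCC) and the core recognised by RBPJ, the DNA-binding partner of Notch (TGGGAA).
Rgs5, chr1:169655251-169655550, plus strand: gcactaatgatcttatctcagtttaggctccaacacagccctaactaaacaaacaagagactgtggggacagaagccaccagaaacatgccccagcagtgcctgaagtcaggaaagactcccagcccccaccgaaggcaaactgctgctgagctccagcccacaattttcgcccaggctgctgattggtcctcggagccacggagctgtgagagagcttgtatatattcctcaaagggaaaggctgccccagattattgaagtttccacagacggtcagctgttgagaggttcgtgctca
Notch3, chr17:32166841-32167140, minus strand: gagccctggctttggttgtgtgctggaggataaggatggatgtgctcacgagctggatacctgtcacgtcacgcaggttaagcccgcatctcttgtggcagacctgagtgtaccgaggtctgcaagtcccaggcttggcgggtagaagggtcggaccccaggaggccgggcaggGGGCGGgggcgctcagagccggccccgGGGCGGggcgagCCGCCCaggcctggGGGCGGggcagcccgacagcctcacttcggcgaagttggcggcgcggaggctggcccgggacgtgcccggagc
Kcnj8, chr6:142571565-142571864, minus strand: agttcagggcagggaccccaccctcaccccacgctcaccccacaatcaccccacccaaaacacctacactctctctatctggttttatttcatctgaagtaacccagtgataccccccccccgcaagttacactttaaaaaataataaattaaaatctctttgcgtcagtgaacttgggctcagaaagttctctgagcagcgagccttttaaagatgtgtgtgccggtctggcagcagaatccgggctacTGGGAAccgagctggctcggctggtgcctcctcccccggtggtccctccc
Abcc9, chr6:142702225-142702524, minus strand: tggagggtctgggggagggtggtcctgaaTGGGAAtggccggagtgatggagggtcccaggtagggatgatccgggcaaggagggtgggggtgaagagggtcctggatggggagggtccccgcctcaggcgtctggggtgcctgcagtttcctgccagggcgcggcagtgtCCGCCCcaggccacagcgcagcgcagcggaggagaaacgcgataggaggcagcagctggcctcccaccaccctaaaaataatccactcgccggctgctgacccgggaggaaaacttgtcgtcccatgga
The Notch3 promoter held 4 GC boxes, and the promoters of Abcc9 and Cspg4 held 1 and 2. A GC box was present in 35.7% of the 32851 promoters in the table. TGGGAA was found in the promoters of Kcnj8 and Abcc9, 1 match each, and in 25.6% of all promoters. TATAAA, the forkhead core TGTTTAC and the CArG box were searched on both strands too and had no match in the 5 promoters, and they occur in 13.6%, 3.65% and 1.63% of all promoters. A match is a description of the letters only.

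Levels are given as scaled RPKM: the RPKM that the authors deposited, in which reads are divided by library size and by the length of the whole gene with its introns, divided here by a factor per library for differences in composition. Depth was 32.7 to 35.1 M reads in the cold libraries and 39.8 to 48.7 M reads in the room temperature libraries. Room temperature replicate 3 stood apart from the other libraries of its group. On the first principal component of all genes tested it lay at -44.0, against -81.3 and -94.2 for room temperature replicates 1 and 2 and 69.3 to 77.9 for the cold libraries. For the 7 genes, the values that change most without it are given with and without it.

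Of the 7 genes, 4 were higher in cold, none (0) was lower and 3 were not called. The 4 were Higd1b, Pdgfrb, Rgs5 and Notch3, and the 3 were Abcc9, Cspg4 and Kcnj8. The test was limma on log2 of scaled RPM (reads scaled to library size alone, not to gene length) plus 0.5, with Benjamini-Hochberg adjustment over all genes tested and a threshold of 0.05. By the same test 35.5% of all genes tested were called higher in cold and 35.0% lower, 70.5% in all, so calls were common throughout the table. Higd1b and Pdgfrb were called with a log2 change of at least 1, as were 17.1% of all genes tested. For all 4 called genes all 3 cold libraries lay above all 3 room temperature libraries, which held for 38.3% of all genes tested, and the groups were apart in either direction for 76.2%. The median log2 change was 0.78 over the 7 genes and 0.0029 over all genes tested. Of the called genes 50.3% were higher in cold, and 65.1% were higher under the deposited scaling, which lifts the median of all genes to 0.29. The 7 genes still gave 4 higher and 0 lower under the deposited scaling.

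**Figure D1:**
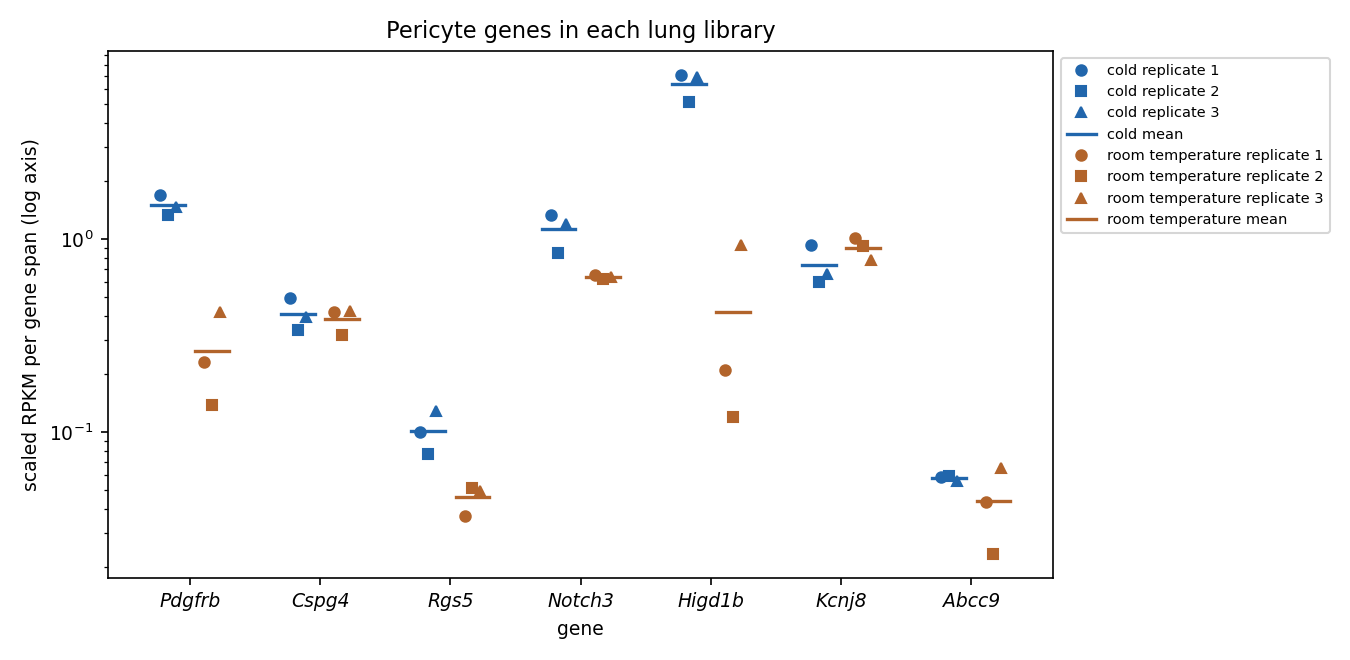
Scaled RPKM per gene span (log axis) of the 7 pericyte genes in each library, with cold in blue to the left of room temperature in brown and horizontal bars for group means. The cold libraries of Higd1b, Pdgfrb, Rgs5 and Notch3 all lie above the room temperature libraries, and those of Cspg4, Kcnj8 and Abcc9 overlap them.

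Among the receptors, Pdgfrb, which encodes the PDGF-B receptor (chromosome 18, 61045150 to 61085061 on GRCm38, plus strand, in GENCODE M21), had 1.70, 1.34 and 1.47 scaled RPKM in cold replicates 1 to 3, against 0.231, 0.138 and 0.417 at room temperature. Every cold library was at least 3.21 times as high as room temperature replicate 3, the highest of its group. The means were 1.50 ± 0.184 in cold and 0.262 ± 0.142 at room temperature (SD, n = 3 each). The log2 change was 2.59 ± 0.36 (SE; limma adjusted p = 0.00081), and 97.4% of all genes tested had a smaller one. It was 2.96 without room temperature replicate 3.

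Notch3, the Notch receptor of mural cells, had 1.33, 0.845 and 1.19 scaled RPKM in the cold libraries, against 0.652, 0.620 and 0.638 at room temperature. The room temperature libraries were close to each other (coefficient of variation 2.56%), and cold replicate 2 was the nearest to them. The log2 change was 0.78 ± 0.16 (SE; limma adjusted p = 0.0035). Notch3 lies on chromosome 17 at 32120820 to 32166852, minus strand. An RNA gene annotated on the opposite strand overlaps Notch3, and since the labels do not say whether strand was kept, its reads cannot be told apart from those of Notch3.

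Within libraries, the log2 ratio of Pdgfrb to Notch3 was 0.23 ± 0.19 in cold and -1.58 ± 0.74 at room temperature (SD, n = 3 each). The log2 change of Pdgfrb was larger than that of Notch3 by 1.81, which did not pass the threshold (exact permutation test, two-sided p = 0.10, adjusted over 3 pairs 0.15). An exact permutation test of 3 libraries against 3 cannot give a p under 0.10, and here the groups did not overlap. Against Cspg4 the difference was 2.52 (exact permutation p = 0.10, adjusted 0.15), again with separated groups.

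Among the intracellular genes, Higd1b, which encodes a small mitochondrial membrane protein of the HIG1 domain family, had the largest change of the 7. It stood at 7.12, 5.11 and 6.94 scaled RPKM in the cold libraries, against 0.211, 0.120 and 0.929 at room temperature. The lowest cold library was 5.50 times as high as the highest room temperature library. The log2 change was 3.55 ± 0.43 (SE; limma adjusted p = 0.00037), at the 99.2th percentile of all genes tested. Higd1b spans only 2.19 kb (chromosome 11, 102835849 to 102838040 on GRCm38, plus strand, in GENCODE M21) and rested on 11.0, 16.0 and 78.0 reads in room temperature replicates 2, 1 and 3, so its size depends on what is added before the log: 4.20 with 0.1 and 2.49 with 2 RPM added. It remained called in each case. Room temperature replicate 3 held 5.62 times the mean of replicates 1 and 2, and without it the log2 change was 4.06.

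Rgs5, a GTPase-activating protein that shortens signalling from G protein-coupled receptors, had 0.0996, 0.0769 and 0.128 scaled RPKM in the cold libraries, against 0.0366, 0.0513 and 0.0495 at room temperature. The groups did not overlap, and the log2 change was 0.95 ± 0.22 (SE; limma adjusted p = 0.0051). Its level in this lung tissue was low: 51.3 to 202 reads per library over a span of 40.3 kb (chromosome 1, 169655501 to 169695813, plus strand), which puts its mean at the 20.7th percentile of all genes tested.

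Cspg4, the gene of the NG2 proteoglycan on the pericyte surface (chromosome 9, 56865033 to 56899870, plus strand), had 0.494, 0.339 and 0.394 scaled RPKM in the cold libraries, against 0.419, 0.319 and 0.425 at room temperature. Cold replicate 1 was the highest library, the other cold libraries lay within the room temperature range, and replicate 2 was the lowest of each group. The log2 change was 0.07, with a 95% interval from -0.33 to 0.47 (limma adjusted p = 0.73), on 432 to 634 reads per library.

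The channel genes Kcnj8 and Abcc9 lie next to each other on chromosome 6 of GRCm38, at 142564837 to 142571614 and 142587862 to 142702315 in GENCODE M21, both on the minus strand. The 16.2 kb between them hold 0 whole genes. Kcnj8 had 0.932, 0.600 and 0.658 scaled RPKM in the cold libraries, against 1.01, 0.922 and 0.778 at room temperature. Cold replicate 1 lay within the room temperature range and the other cold libraries below it. The log2 change was -0.30, with a 95% interval from -0.74 to 0.15 (limma adjusted p = 0.20), and it stood at 0.0033 under the deposited scaling.

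Abcc9 had 0.0587, 0.0591 and 0.0555 scaled RPKM in the cold libraries, against 0.0435, 0.0233 and 0.0652 at room temperature. The cold libraries were close to each other (coefficient of variation 3.38%) and lay inside the wide room temperature range. The log2 change was 0.46, with a 95% interval from -0.27 to 1.18 (limma adjusted p = 0.22). The value rests on single room temperature libraries: without replicate 3 it was 0.75 and called (limma adjusted p = 0.013), and without replicate 2 it was 0.10 and not called (adjusted p = 0.65). An antisense RNA gene overlaps Abcc9 too. The log2 ratio of Kcnj8 to Abcc9 was -0.41 ± 0.30 in cold and 0.35 ± 0.78 at room temperature (SD, n = 3 each; difference -0.75, exact permutation p = 0.20, adjusted 0.20), and room temperature replicate 3, at -0.47, lay with the cold libraries.

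**Figure D2:**
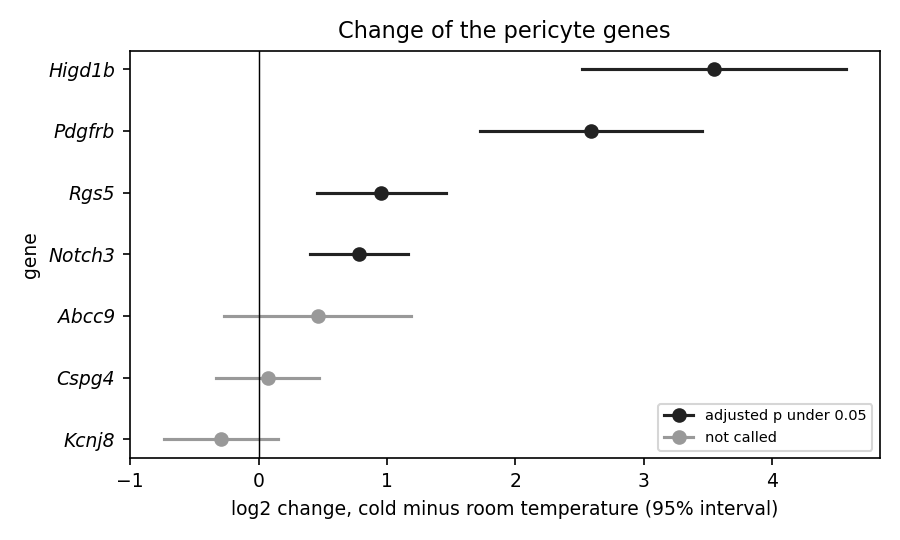
Log2 change of each pericyte gene, cold minus room temperature, with its 95% interval from the limma fit. The intervals of Higd1b (2.52 to 4.57), Pdgfrb (1.73 to 3.45), Rgs5 (0.45 to 1.46) and Notch3 (0.40 to 1.17) lie above 0, and those of Abcc9, Cspg4 and Kcnj8 include it.

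Fewer genes pass in the authors' deposited table, where a share of 12.7% of the 18174 genes had a q value under 0.05 and were higher in cold, and 12.0% were lower. Of the 7 genes Higd1b (q = 1.2e-08) and Pdgfrb (q = 0.00012) were among them in the authors' deposited table. Rgs5 (q = 0.11), Notch3 (q = 0.27), Kcnj8 (q = 0.75), Abcc9 (q = 0.65) and Cspg4 (q = 0.95) did not pass in the authors' deposited table.

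The order of the levels differed between the groups. Per kilobase of span, Higd1b was the highest in cold at 6.39 ± 1.11 scaled RPKM, followed by Pdgfrb at 1.50 ± 0.184, Notch3 at 1.12 ± 0.251, Kcnj8 at 0.730 ± 0.177, Cspg4 at 0.409 ± 0.0787, Rgs5 at 0.101 ± 0.0256 and Abcc9 at 0.0577 ± 0.0020 (SD, n = 3). Among these neighbours only the libraries of Notch3 and Kcnj8 overlapped. At room temperature Kcnj8 came first at 0.903 ± 0.117 and Notch3 next at 0.636 ± 0.0163. Higd1b, Cspg4 and Pdgfrb came after them, at 0.420 ± 0.443, 0.387 ± 0.0598 and 0.262 ± 0.142. From Notch3 to Pdgfrb each gene overlapped with the next, and Pdgfrb lay apart from Rgs5, the next below it. Rgs5 (0.0458 ± 0.0080) and Abcc9 (0.0440 ± 0.0210) were lowest and overlapped.

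Introns weigh on this scale, because exons make up 7.32% of the span of Abcc9 but 38.6% of that of Higd1b. Per kilobase of merged exons the order in cold was the same, with Higd1b at 16.5 ± 2.88, Pdgfrb at 10.9 ± 1.34 and Abcc9 at 0.789 ± 0.0267 scaled RPM per kilobase (SD, n = 3). There Abcc9, Rgs5 and Cspg4 overlapped as neighbours. At room temperature Notch3 was the highest on the exon scale, at 3.62 ± 0.0929, Kcnj8 had 2.40 ± 0.312 and Pdgfrb 1.91 ± 1.03. How many of the reads came from introns is not known.

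Summed over the 7 genes, the level was 179, 129 and 158 scaled RPM in the cold libraries, against 67.6, 56.4 and 77.6 at room temperature. Pdgfrb made up 37.0% to 41.3% of this sum in cold and 9.75% to 21.4% at room temperature. Kcnj8 made up 2.82% to 3.53% in cold and 6.80% to 11.1% at room temperature. Cold replicate 2 was the lowest cold library for 6 of the 7 genes, and room temperature replicate 3 the highest of its group for 4.

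The 7 genes differed from each other in their profiles over the 6 libraries. The distance used was the root mean square difference between log2 profiles, each centred on its own mean. Rgs5 and Notch3 were nearest to each other at 0.22, then Cspg4 and Kcnj8 at 0.26. Higd1b and Kcnj8 were farthest apart at 2.02, and the channel subunits Kcnj8 and Abcc9 were 0.61 apart. Over 12464 genes with a mean log2 level of at least 1, the nearest profile to Pdgfrb was that of Sipa1 (distance 0.064), followed by G0s2 (0.066) and the connexin gene Gjc1 (0.074). Nearest to Higd1b was Sema3c (0.069), to Notch3 the collagen gene Col8a1 (0.044), to Rgs5 Tyw3 (0.064) and the elastin gene Eln (0.10), to Cspg4 Mtss1l (0.064), to Kcnj8 Nsdhl (0.051) and to Abcc9 Gli2 (0.094). These are the closest of many candidates over 6 libraries and are given as a description.

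Further genes known from pericytes were mostly higher in cold: of 15 listed and tested, 12 were called higher, 1 lower and 2 were not called, with a median log2 change of 2.06. Without room temperature replicate 2 the counts were 11 and 2. The calcium-permeable channel gene Trpc6 had 0.0779 ± 0.0110 scaled RPKM in cold and 0.0039 ± 0.0049 at room temperature (SD, n = 3 each, here and below; log2 change 3.62, limma adjusted p = 0.00031). In room temperature replicates 1 to 3 Trpc6 stood at 0.0023, 0 and 0.0095, near the rounding of the deposited values to 3 decimals. The size of its change therefore depends on the 0.5 RPM added before the log. Mcam, the adhesion molecule CD146, had 17.3 ± 1.85 in cold and 4.18 ± 1.19 at room temperature, and Postn, which encodes the matrix protein periostin, had 3.56 ± 0.614 and 1.18 ± 0.339 in the same order. The soluble guanylate cyclase subunit gene Gucy1a1, listed under its older symbol, had 1.57 ± 0.349 in cold and 0.184 ± 0.140 at room temperature. Steap4, a metalloreductase gene, was the member that fell, with 0.377 ± 0.0470 in cold and 0.924 ± 0.141 at room temperature (log2 change -1.24, limma adjusted p = 0.00025). Anpep and Art3 were not called. Endothelial cells or smooth muscle also express several of these genes, Mcam and Gucy1a1 among them.

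Of the PDGF ligands and the other receptors, 3 of 6 were called higher and 2 lower (median 0.67). For this and every other list, the counts stand beside 35.5% of all genes tested called higher and 35.0% called lower. Pdgfb, the ligand that endothelium presents to pericytes, had 3.20 ± 0.629 scaled RPKM in cold and 0.589 ± 0.318 at room temperature (log2 change 2.49, limma adjusted p = 0.00072). Pdgfra, the receptor of lung fibroblasts, had 4.29 ± 0.934 in cold and 0.339 ± 0.213 at room temperature (log2 change 3.79, limma adjusted p = 0.00047). Pdgfd also rose. Pdgfc fell, with 0.0051 ± 0.0010 in cold and 0.0273 ± 0.0082 at room temperature, as did the receptor-like gene Pdgfrl, and Pdgfa was not called (log2 change -0.16, but 0.16 under the deposited scaling and 0.0072 without cold replicate 3).

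In the Notch pathway 10 of 19 tested genes were called higher and 2 lower (median 0.35), and without room temperature replicate 3 the counts were 9 and 5. The receptors Notch4 and Notch1 rose, by 3.85 and 1.13 on the log2 scale, and Notch2 was not called (-0.13, and 0.19 under the deposited scaling; called without room temperature replicate 3, limma adjusted p = 0.046). The endothelial ligand gene Dll4 had 2.49 ± 0.214 scaled RPKM in cold and 0.353 ± 0.372 at room temperature (log2 change 3.05, limma adjusted p = 0.0037), and Dll1 had 5.03 ± 0.146 and 0.560 ± 0.347 in the same order. Jag1, a ligand shared by endothelium and mural cells, was not called (log2 change -0.27, limma adjusted p = 0.066). Jag1 was called with the replicate number as a block (adjusted p = 0.038) and without cold replicate 3 (0.021), and its change was 0.056 under the deposited scaling. Among the target genes, Heyl rose by 1.15 on the log2 scale (limma adjusted p = 0.0014). Hes1 fell, with 15.3 ± 3.18 in cold and 37.0 ± 4.83 at room temperature. Hey2 (0.75, limma adjusted p = 0.026) and Hey1 (0.47, adjusted p = 0.046) were called too, and both lost the call when single libraries were left out, with adjusted p up to 0.098 for Hey2 (without cold replicate 3) and 0.15 for Hey1 (also without cold replicate 3). With the replicate number as a block Hey1 had an adjusted p of 0.095.

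Of 8 further ion channel genes, 3 were called higher and 5 lower (median -0.92). The list was drawn up for mural cells, but its genes are not taken as restricted to them. The median ranged over the alternatives from -1.80, with voom on recovered reads, to -0.47, with log2(scaled RPKM + 0.01), and 4 were lower in several of them, such as without room temperature replicate 3. The partners that form the other ATP-sensitive potassium channel both fell. Kcnj11, which encodes the pore Kir6.2, had 0.149 ± 0.0968 scaled RPKM in cold and 2.33 ± 0.535 at room temperature (log2 change -3.49, limma adjusted p = 8.8e-05). Abcc8, which encodes SUR1, had 0.0077 ± 0.0041 in cold and 0.0700 ± 0.0084 at room temperature (log2 change -2.45, adjusted p = 9.6e-05). Kcnj2, a strong inward rectifier, had 2.37 ± 0.664 in cold and 0.765 ± 0.0086 at room temperature and rose, as did the calcium channel gene Cacna1c and Trpc6, described above. Kcnmb1, the smooth muscle subunit of the large-conductance potassium channel, fell, with 0.386 ± 0.0993 in cold and 4.55 ± 0.991 at room temperature.

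**Figure D3:**
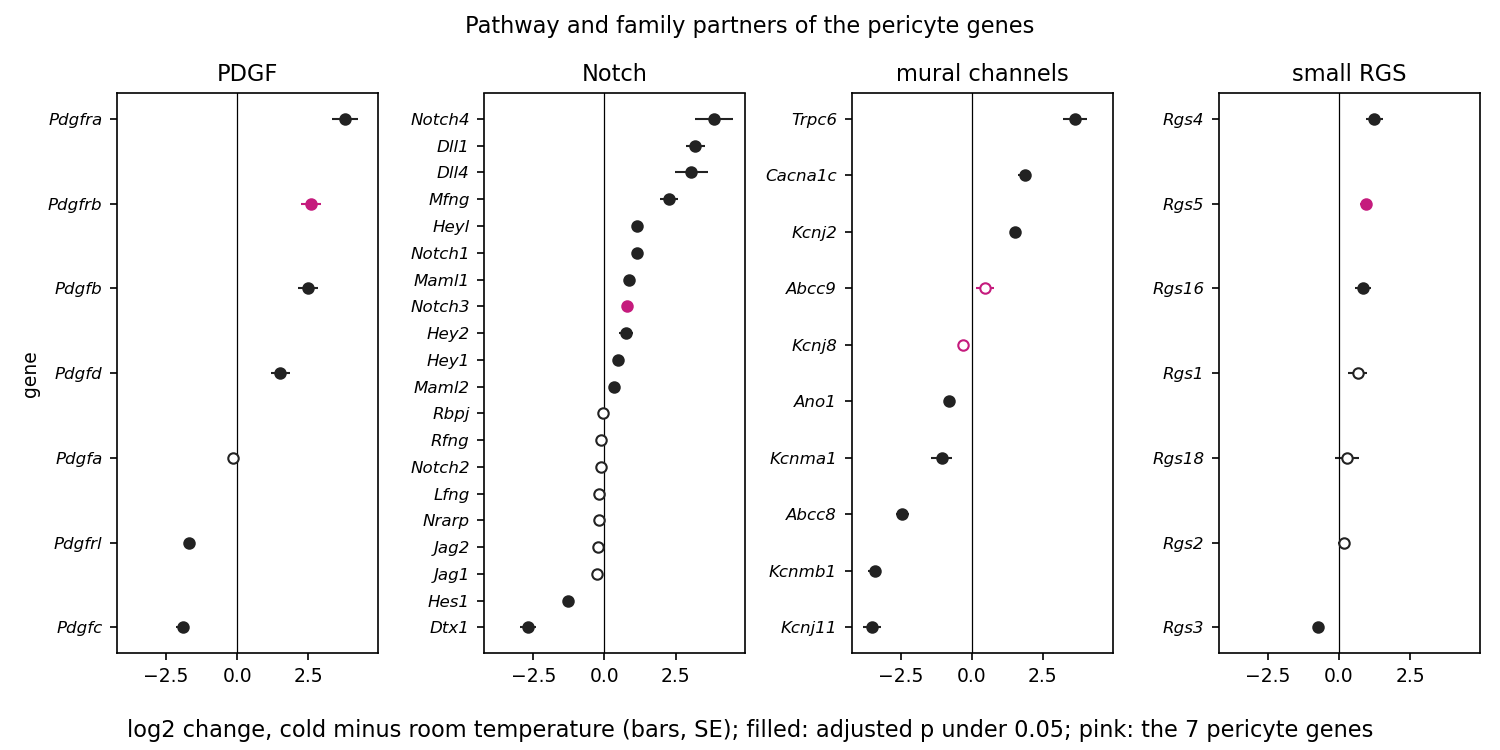
Log2 change, cold minus room temperature, of the tested PDGF, Notch, mural channel and small RGS genes (points, with SE as bars; filled where the adjusted p is under 0.05), with the pericyte genes in pink. Pdgfrb lies between Pdgfra and Pdgfb, and Kcnj8 and Abcc9 lie near 0 between the channel genes that rose and those that fell.

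In the small RGS family 2 of 6 tested genes were called higher and 1 lower (median 0.47). The median was 0.25 without cold replicate 2, and 1 gene was called higher there and without room temperature replicate 1 or 2. Rgs4, whose protein acts on the same class of G proteins as that of Rgs5, had 1.53 ± 0.277 scaled RPKM in cold and 0.624 ± 0.277 at room temperature (log2 change 1.25, limma adjusted p = 0.0056). Rgs16 was called (0.85, adjusted p = 0.025) and lost the call without cold replicate 2, where the adjusted p was 0.065, and also with room temperature replicate 1 (0.053) or 2 (0.058) left out. Rgs3 fell by 0.75 on the log2 scale, and Rgs2, the most abundant of these genes per span, was not called (7.98 ± 0.636 in cold and 7.28 ± 2.22 at room temperature; log2 change 0.18, and -0.12 without room temperature replicate 3). In the HIG1 family Higd1a was not called (1.67 ± 0.0848 in cold and 1.86 ± 0.181 at room temperature), and Higd2a, a factor of respiratory chain assembly, fell, with 23.1 ± 2.77 in cold and 49.3 ± 3.76 at room temperature.

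Genes by which pericytes and endothelium signal to each other were called higher in 12 of 16 cases and lower in 0 (1 with the replicate number as a block, and 1 without room temperature replicate 2; 13 higher without room temperature replicate 3), with a median log2 change of 1.10. Angpt1, the angiopoietin that pericytes secrete, had 0.145 ± 0.0164 scaled RPKM in cold and 0.0407 ± 0.0206 at room temperature (log2 change 1.90, limma adjusted p = 0.0027). Its endothelial receptor gene Tek had 1.06 ± 0.178 in cold and 0.0576 ± 0.0572 at room temperature (log2 change 4.52, adjusted p = 0.00086). The sphingosine phosphate receptor genes S1pr3 and S1pr2 rose by 1.78 and 1.20 on the log2 scale, and Cdh2, the N-cadherin gene, was not called (log2 change -0.30). Of 9 basement membrane genes 7 were higher and 0 lower (median 1.16), with the collagen IV genes Col4a1 and Col4a2 at 2.14 and 2.18. The higher count was 8 without room temperature replicate 3. It was 6 without room temperature replicate 1, cold replicate 1 or cold replicate 3. The median was 0.81 without room temperature replicate 2.

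Markers of other cell types moved in the same libraries. All 16 endothelial markers were called higher in cold, with a median log2 change of 3.97. The median was 4.78 without room temperature replicate 3 and 3.36 without room temperature replicate 2. Their summed level was 3759 to 4501 scaled RPM in cold and 126 to 796 at room temperature, where replicate 3 was the highest. Of 14 smooth muscle markers 0 were higher and 12 lower (median -2.06; sum 651 to 991 in cold and 3023 to 3765 at room temperature). Acta2, smooth muscle actin, had 7.42 ± 2.45 scaled RPKM in cold and 38.1 ± 9.04 at room temperature, and Myh11, smooth muscle myosin, had 1.07 ± 0.281 and 4.47 ± 0.283 in the same order. Of 15 fibroblast markers 6 were higher and 5 lower, with a median of -0.0014 and a sum of 1622 to 1875 in cold and 1103 to 1787 at room temperature. Under the deposited scaling 6 were higher and 3 lower (median 0.30). The lower count was 3 without cold replicate 3 and 4 without room temperature replicate 3. It was 6 with the replicate number as a block and 7 without room temperature replicate 2 (median -0.26). All 11 airway markers were lower (median -3.11; sum 16690 to 19926 in cold and 68227 to 89360 at room temperature).

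Of 12 tested cardiomyocyte markers 0 were higher and 8 lower (median -1.87; 5 lower without cold replicate 2 or without room temperature replicate 1, 6 without room temperature replicate 3 and 11 without room temperature replicate 2), with a sum of 196 to 349 scaled RPM in cold and 505 to 1827 at room temperature, where replicate 2 was the lowest. The ventricular gene Myl2 had too few reads to test. Of 9 tested adipocyte markers 8 were lower (sum 34.7 to 61.3 in cold and 176 to 320 at room temperature), and of 5 Schwann cell markers 2 were lower (sum 5.30 to 6.10 in cold and 9.26 to 17.3 at room temperature). Of 6 cartilage markers 5 were in the table, Acan was at 0 in every library, and the 1 tested, Sox9, was lower. The 4 pericyte genes that rose did so in the libraries in which the endothelial markers were high and the smooth muscle markers low. Fibroblast markers, Pdgfra among those that rose, moved in both directions between the same groups. The part of these cell types in the pericyte gene values was not tested.

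**Figure D4:**
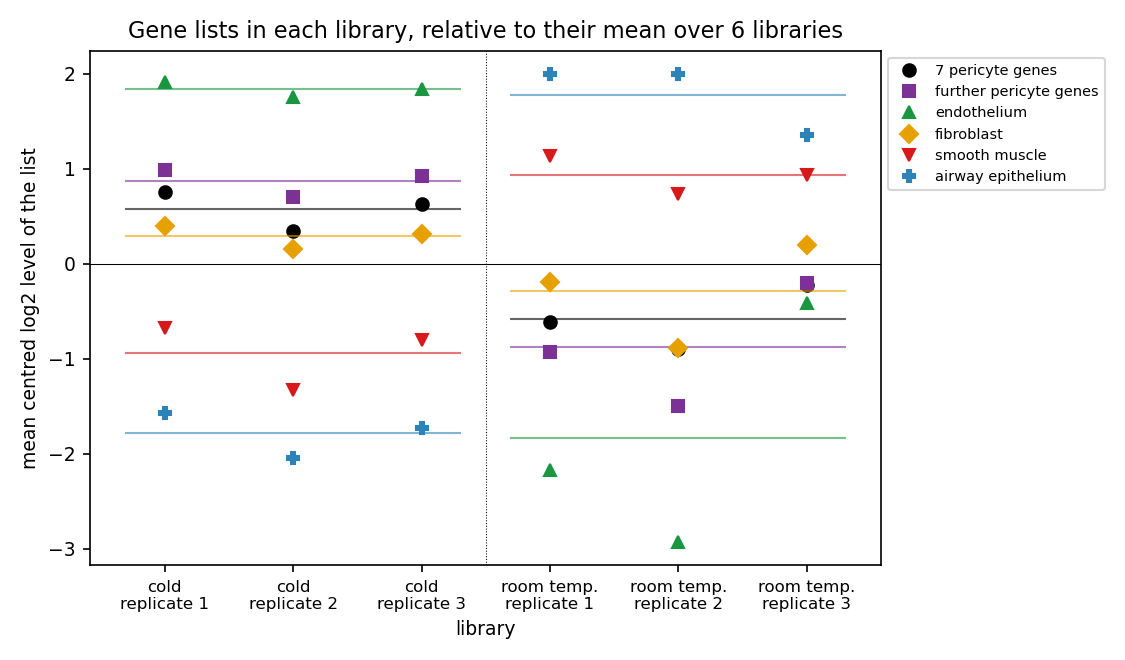
Mean centred log2 level of 6 gene lists in each library, relative to the mean of each list over the 6 libraries, with group means as lines. The pericyte genes lie at 0.35 to 0.76 in cold and -0.90 to -0.22 at room temperature, between the endothelial list (1.75 to 1.92 and -2.93 to -0.41) and the smooth muscle list (-1.33 to -0.68 and 0.73 to 1.14).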

How the data were processed

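Lung RNA was made into libraries with a NEBNext Ultra II kit, per the labels' protocols. The submitters' processing notes name mm10 as the build. Aligner, counter, annotation and strand setting were not given in the sources used here. As deposited, values are RPKM made by the authors, rounded to 3 decimals. Value times gene span in GENCODE M21 falls on whole multiples of 1 step per library (phase coherence 0.771 to 0.826, against at most 0.123 for exon length), which gives the depth; 83.2% to 86.3% of low values came out whole within 0.1 reads. The authors also deposited a log2 fold change, which equals the log2 ratio of their group means, a small constant added, in all 18174 rows, and a p-value whose Benjamini-Hochberg adjustment equals their q-value. Their test was not stated.

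RPM was RPKM times span in kilobases, then scaled per library with a trimmed mean of M values, unweighted, after trimming 30% of the ratios and 5% of the averages from either end. Of 18174 rows 92 had no span. A gene was tested if 3 or more libraries held what would be 10 reads at median depth, and the 6 together at least 15 reads, with limma 3.58.1 in R 4.3.3 (trend and robust) on log2(RPM + 0.5), group as the only term. The 0.5 added makes fold changes of low genes too small. Intervals of 95% come from the limma standard errors. The procedure was tested only on simulated data in which few genes changed, which does not cover the many calls in these data. No 2 libraries of a group agreed within sampling noise (chi-square per degree of freedom 16.0 to 89.5). The labels number the replicates 1 to 3 in each group. Deviations from the group means correlated at 0.115, 0.149 and 0.155 between same-numbered libraries, and at -0.206 to 0.0640 between the others. The labels do not say that the numbers pair the libraries. A fit with the number as a block was therefore run as an alternative only. The fit reported and the permutation tests of ratios do not use the number. Named genes are the 7 members, their direct ligands, subunits and family members, up to 4 called genes per list and direction, and the 3 nearest profiles per member. An item of the ion channel list is not reported here and was left out of its counts. The members and lists were chosen with earlier results of these data known. Some lists share genes, so their counts are not separate: Tek and Eng (signalling and endothelial), Heyl (further pericyte and Notch), Pdgfra (PDGF and fibroblast) and Trpc6 (further pericyte and channel).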

Additional observations from a re-analysis of the deposited data

How the results depend on the processing

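Higd1b, Pdgfrb, Rgs5 and Notch3 kept their direction and their call under every alternative run: the deposited and the median-of-ratios scaling, no filter on low values, 0.1 or 2 RPM added, log2(scaled RPKM + 0.01), voom on recovered reads, the replicate number as a block, and each library left out. With single libraries left out the log2 changes ranged from 3.21 to 4.06 for Higd1b, 2.21 to 2.96 for Pdgfrb, 0.79 to 1.11 for Rgs5 and 0.65 to 0.97 for Notch3. Among those not called, Cspg4 ranged from -0.070 to 0.19, negative without cold replicate 1 or room temperature replicate 2. Abcc9 ranged from 0.10 (without room temperature replicate 2) to 0.75 and was called only without room temperature replicate 3, and Kcnj8 ranged from -0.47 to -0.18 and was 0.0033 under the deposited scaling. The cause was not tested. With the replicate block 5349 genes were higher and 5320 lower, against 5409 and 5336 without it. The block changed the call of 0 of the 7 pericyte genes, and of the partner genes named in the text it changed those of Hey1 and Jag1 only. Depth limits Higd1b most, at 11.0 reads in its lowest library.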

Other observations

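Set against the summed endothelial list within each library, a ratio chosen after the values were seen, Pdgfrb stood at 1.33% to 1.51% in the cold libraries and at 2.09% to 4.37% in the room temperature libraries, lowest there in replicate 3. Notch3 stood at 1.03% to 1.36% in cold and at 3.69% to 22.7% at room temperature. For Higd1b the same ratio was 0.298% to 0.347% in cold and 0.205% to 0.256% at room temperature. For Cspg4 it was 0.312% to 0.383% in cold and 1.86% to 8.82% at room temperature. Set against the summed smooth muscle list, Notch3 stood at 5.97% to 6.18% in cold and at 0.797% to 0.943% at room temperature, and Pdgfrb at 6.56% to 8.19% in cold and at 0.182% to 0.528% at room temperature. These ratios were not tested.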
